A study of Homo sapiens with 6 samples.

Results

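The 10 genes described here encode RNA-binding proteins and RNases that set how long inflammatory mRNAs last: ZFP36, ZFP36L1, ZFP36L2, ZC3H12A, ZC3H12C, N4BP1, ELAVL1, KHSRP, HNRNPD and TIA1. They were chosen by symbol, with earlier results of these data known. All 10 were found among the 27945 genes of the deposited table, each at 1 place in the genome. RNA was measured by bulk sequencing in HaCaT cells, an immortalised human keratinocyte line. p38α-knockout cells (KO, labelled MAPK14-null) gave 2 libraries after 4 h of IL-1α in PBS and 1 unstimulated library after 4 h of PBS. Wild-type cells (WT) gave 2 IL-1α libraries and 1 unstimulated library in the same way. The labels do not describe the edit in MAPK14, the number of clones, or whether replicates were separate cultures, so p-values measure only the spread between these samples, which may be technical. In a mixed RNA sample, fewer cells of a type and less RNA per cell cannot be told apart.

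Many cytokine and chemokine mRNAs carry AU-rich elements, runs of the pentamer AUUUA, in their 3′ untranslated region. Proteins of the ZFP36 family bind these elements and recruit the enzymes that remove the poly(A) tail, whereas ELAVL1 (HuR) binds similar sequences and protects the mRNA. ZC3H12A (Regnase-1) is an RNase that cuts stem-loops in the same kind of mRNA. The p38α kinase acts on this system through its substrate kinase MK2, which phosphorylates ZFP36 and blocks its activity. Such control acts on the protein, and the libraries measure mRNA only.

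Several of these regulators carry AU-rich elements themselves. Of the 10 genes, 9 could be matched to a GENCODE 29 transcript (build GRCh38), TIA1 being the one that was not. The nonamer TTATTTATT, the preferred site of the ZFP36 proteins, was found on the transcript strand of 5 of these 9, 55.6%, against 7.6% of 10921 tested coding genes. The 9 have a median 3′ untranslated region of 1871 bases against 887 bases for all those genes, and a longer region has more room for a match. The sites of 5 regulators, and of CXCL8 and CSF2, 2 target mRNAs that hold the nonamer, are printed as DNA with ATTTA in capitals, to show what such an element looks like in each:
ZFP36: ggccctttATTTAtgacgactttATTTAtt
ZFP36L1: aactgttggattATTTAttttagaaattcc
ZFP36L2: aatatgaaaactATTTAacttATTTAttat
ZC3H12C: tttacacccattATTTAttagagatatttc
ELAVL1: tATTTAtacctATTTAtgtATTTATTTAtt
CXCL8: atgtaaagtattATTTAtttgaatctacaa
CSF2: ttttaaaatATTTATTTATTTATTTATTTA
Each is a stretch of 30 bases, beginning at base 486 of the 3′ untranslated region of ZFP36, 1428 of ZFP36L1, 834 of ZFP36L2, 4420 of ZC3H12C and 1616 of ELAVL1. ATTTA occurs 27 times in the 6104 bases of ZC3H12C and 13 times in the 4904 bases of ELAVL1. N4BP1 has 7 pentamers and no nonamer. ZC3H12A, KHSRP and HNRNPD have no ATTTA in theirs, of 768, 764 and 356 bases. Only the matched transcript of each gene was read, so other 3′ ends were not searched. Among mRNAs known as targets, described further on, 50.0% of 28 AU-rich ones and 43.8% of 16 Regnase-1 targets hold the nonamer; CCL20 and IL1A do not, and LCN2 has no ATTTA. A match is a description of the sequence and not a mapped binding site.

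Levels are given in RPKM, reads per kilobase of exon scaled to the depth of the library, and so can be compared between genes. Depth, recovered from the values, was 16294033 to 34967642 reads per library, and 176 to 10071 reads stood behind each value of the 10 genes. MAPK14, the targeted gene, had 10.99 and 7.41 RPKM in the KO IL-1α libraries and 11.3 RPKM in the unstimulated KO library, against 13.3, 14.8 and 14.4 RPKM in the WT libraries, so its mRNA was still present. The 8 keratinocyte markers all reached 1 RPKM, and their summed level was 3485 to 4032 RPKM in the KO libraries against 5703 to 6808 RPKM in the WT libraries. Summed markers stayed at or below 2.10 RPKM for fibroblasts (2 of 5 reached 1 RPKM), 1.04 RPKM for leukocytes (0 of 4) and 0.611 RPKM for melanocytes (0 of 3). Endothelial markers reached a sum of 11.96 RPKM (1 of 3 reached 1 RPKM), carried by CDH5, which had 10.3 and 1.84 RPKM in KO cells with IL-1α against 2.94 RPKM unstimulated, and 11.4 and 11.8 RPKM in WT cells with IL-1α against 1.45 RPKM unstimulated. PECAM1 was listed at 0 throughout, but LSM2 and SKIV2L, which every cell uses, were also listed at 0 in all libraries, so a 0 in this table need not mean that a gene is silent. CDH5 thus stood at over 10 RPKM in the IL-1α libraries except KO replicate 2, a library that also stood apart in CCL2 (8.87 RPKM against 206 RPKM in KO replicate 1). Of the keratinocyte markers, KRT14, KRT17 and SFN, which make up much of the sum, were lower in every KO library than in every WT library. KRT5, KRT6A, DSP and PERP overlapped between genotypes. TP63 had 51.1 and 34.7 RPKM in KO cells with IL-1α and 42.8 RPKM unstimulated, against 27.8, 35.9 and 26.6 RPKM in WT cells. The part of these markers in the differences below was not tested.

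HNRNPD, the gene of the decay factor AUF1, was the most abundant of the 10 in all 6 libraries, at 109 to 166 RPKM. KHSRP and ZFP36L1 followed at 60.1 to 88.0 RPKM. ZC3H12C was the lowest in 5 of the 6 libraries, at 2.36 to 7.75 RPKM, and second lowest in KO IL-1α replicate 2, at 11.7 RPKM. ZC3H12A moved most in this order: it ranked 9 in both unstimulated libraries and 4 or 5 in the IL-1α libraries. Neighbours whose replicate values overlapped under IL-1α in KO cells were ZFP36L1 and KHSRP, ZC3H12A and ZFP36L2, ZFP36 and TIA1, and TIA1 and ZC3H12C. In WT cells under IL-1α they were ZFP36L2 and ZC3H12A, N4BP1 and ZFP36, and ZFP36 and ELAVL1. The unstimulated groups had 1 library each, so the order there has no spread.

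**Figure D1:**
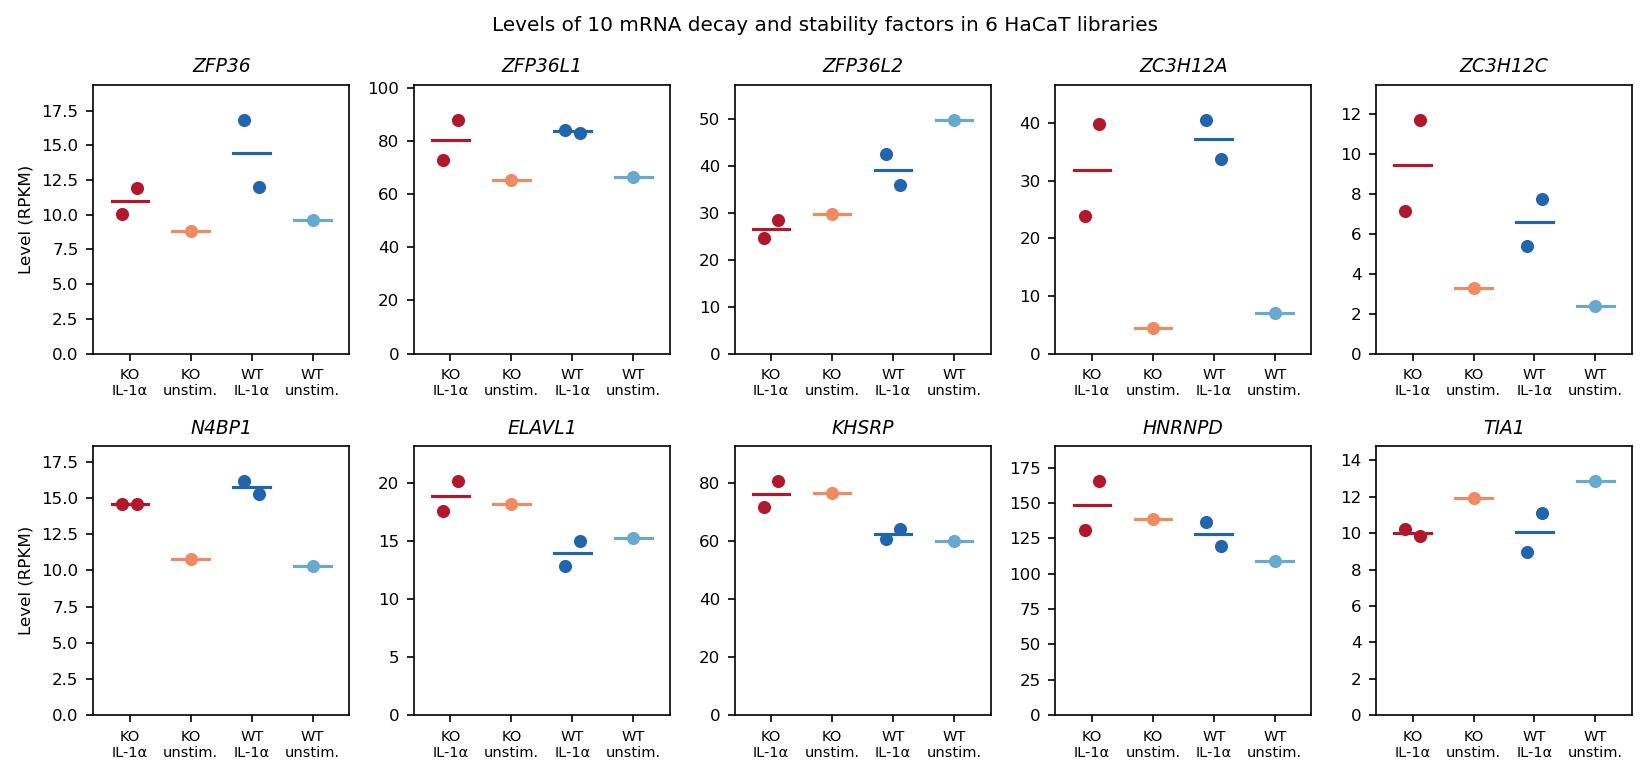
Level in RPKM of each of the 10 genes (y axis, linear, from 0) in the KO and WT groups with IL-1α or PBS (x axis); points are libraries and lines are group means. ZC3H12A stands at 23.9 to 40.6 RPKM in the IL-1α libraries and at 4.37 and 7.03 RPKM in the unstimulated ones. ZFP36L2 is lower in all 3 KO libraries than in all 3 WT libraries, as are 8.86% of all genes.

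Differences were tested with limma on log2(RPKM + 0.5) across the 12925 genes that reached 1 RPKM in some library, with Benjamini-Hochberg adjustment and a threshold of 0.05. All 10 genes passed that filter. The spread came from the 2 IL-1α pairs alone, with 2 residual degrees of freedom. After IL-1α, 0 of the 10 passed in KO cells, where 0.0696% of all genes passed, and 0 of the 10 passed in WT cells, where 0.217% of all genes passed. By limma-voom on rebuilt reads the count was also 0 in both. At an unadjusted p below 0.05, 2 of the 10 were higher with IL-1α in KO cells (ZC3H12A and ZC3H12C), against 2.53% of all genes, and 3 in WT cells (the same genes and N4BP1), against 4.69%; 0 were lower in WT cells, against 13.4%. The median response of the 10 was 0.19 log2 units in KO cells and 0.28 in WT cells, against −0.02 and −0.14 over all genes.

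Every IL-1α library lay above the unstimulated library of its own genotype for 5 of the 10 genes, ZFP36, ZFP36L1, ZC3H12A, ZC3H12C and N4BP1, against 14.1% of all genes. In KO cells alone, the IL-1α pair lay above the unstimulated library for these 5 (27.8% of all genes) and below it for 2 (36.4%). In WT cells the numbers were 7 of 10 above (27.5% of all genes) and 3 below (54.3%).

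ZC3H12A (chromosome 1, 37940119 to 37949978, plus strand, hg19) encodes Regnase-1, and showed the largest response of the 10 in both genotypes. Its level was 23.9 and 39.8 RPKM in KO cells with IL-1α against 4.37 RPKM unstimulated. In WT cells it was 40.6 and 33.8 RPKM with IL-1α against 7.03 RPKM unstimulated. All 4 IL-1α libraries stood well above both unstimulated ones. The log2 difference was 2.69 ± 0.32 (SE) in KO cells, a fold of 6.44 with a 95% interval of 3.74 to 11.1, and its adjusted p in limma was 0.0928. In WT cells it was 2.32 ± 0.32, a fold of 4.99 (2.90 to 8.60), with an adjusted p in limma of 0.0637. Neither passed the threshold. Without KO replicate 2 the response in KO cells was 2.33, and without KO replicate 1 it was 3.05. When only genes with a mean of at least 5 RPKM were tested, ZC3H12A passed in limma in both genotypes, with adjusted p of 0.00547 in KO cells and 0.00691 in WT cells. The difference between the genotypes' responses was 0.37 ± 0.46 log2 units (limma, adjusted p = 0.966), and its interval ran from 0.598-fold to 2.79-fold.

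The promoter of ZC3H12A could be read from the RefSeq promoter table (GRCh38.p14, 250 bases before to 50 after the start). It holds the TATA box TATAAA on the gene's strand 27 bases upstream, at chr1:37474553-37474558, shown in capitals with 10 bases on each side:
ZC3H12A: cgccgccccaTATAAAggcgccgccg
TATAAA, on either strand, was in 11.5% of the table's 35116 promoters. It was also found for HNRNPD, N4BP1 and TIA1, at 126, 242 and 149 bases upstream, so for 4 of the 8 genes listed. Consensus sites of AP-1, CRE and SRF were searched too. They were found in 0, 2 and 1 of the 8 genes, against 4.9%, 1.8% and 1.3% of all promoters. The 8 genes have 11 promoters in the table, and a match in any of them counted for its gene. These counts and that of TATAAA are thus per gene, and the shares are per promoter, which favours the 8 genes. The κB consensus was in none of the promoters of the 8 genes that the table lists, against 5.9% of all promoters, and no match says only that those letters are not in this window.

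ZC3H12C (chromosome 11, 109964087 to 110042566, plus strand) encodes a relative of Regnase-1 with the same kind of RNase domain. Its level was 7.14 and 11.7 RPKM in KO cells with IL-1α against 3.30 RPKM unstimulated. In WT cells it was 5.38 and 7.75 RPKM with IL-1α against 2.36 RPKM unstimulated. The 2 replicates of the KO pair lay 1.64-fold apart, more than the 1.21-fold median of all genes. The fold was 2.54 (95% interval 1.40 to 4.63) in KO cells and 2.43 (1.33 to 4.43) in WT cells, with adjusted p of 0.769 and 0.173 in limma. The ratio of ZC3H12A to ZC3H12C, both per length, was 3.35 and 3.40 in KO IL-1α libraries against 1.32 unstimulated, and 7.56 and 4.36 in WT IL-1α libraries against 2.97 unstimulated. Their paralogs ZC3H12B and ZC3H12D stayed at or below 0.185 RPKM.

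N4BP1 (chromosome 16, 48572637 to 48644120, minus strand), whose product carries an RNase domain related to that of Regnase-1 and restrains cytokine production, had 14.6 and 14.6 RPKM in KO cells with IL-1α against 10.8 RPKM unstimulated, and 16.2 and 15.3 RPKM in WT cells with IL-1α against 10.3 RPKM unstimulated. The log2 difference was 0.42 ± 0.19 in KO cells and 0.58 ± 0.19 in WT cells, with adjusted p of 1 and 0.206 in limma.

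**Figure D2:**
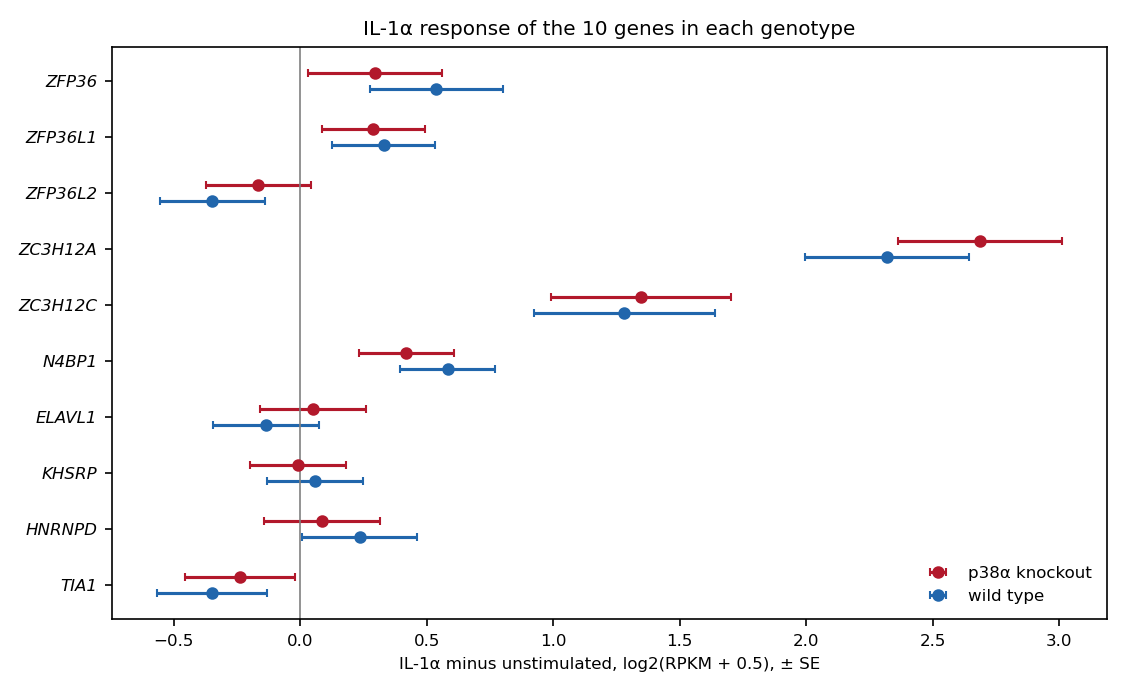
IL-1α minus unstimulated on the log2(RPKM + 0.5) scale (x axis) for each gene (y axis), in KO and WT cells; points are limma estimates and bars are SE. ZC3H12A and ZC3H12C lie farthest right in both genotypes, at 2.69 and 1.35 in KO cells and 2.32 and 1.28 in WT cells.

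Members of the ZFP36 family did not all have the same direction. ZFP36 (tristetraprolin; chromosome 19, 39897487 to 39900052, plus strand), the founding decay factor, had 10.0 and 11.9 RPKM in KO cells with IL-1α against 8.82 RPKM unstimulated, and 16.9 and 12.01 RPKM in WT cells with IL-1α against 9.65 RPKM unstimulated. The WT replicates of ZFP36 were 1.40-fold apart, and its responses of 0.30 ± 0.26 in KO cells and 0.54 ± 0.26 in WT cells had adjusted p of 1 and 0.343 in limma. ZFP36L1 (chromosome 14, 69254372 to 69262960, minus strand), the most abundant of the family, had 72.7 and 88.0 RPKM in KO cells with IL-1α against 65.4 RPKM unstimulated, and 84.2 and 82.8 RPKM in WT cells with IL-1α against 66.3 RPKM unstimulated. Its log2 differences were 0.29 ± 0.20 in KO cells and 0.33 ± 0.20 in WT cells, with adjusted p of 1 and 0.441 in limma. ZFP36 and ZFP36L1 thus had higher IL-1α values in every library.

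ZFP36L2 (chromosome 2, 43449541 to 43453745, minus strand) ran the other way. It had 24.7 and 28.5 RPKM in KO cells with IL-1α against 29.8 RPKM unstimulated, and 42.4 and 35.9 RPKM in WT cells with IL-1α against 49.8 RPKM unstimulated. Both IL-1α libraries of each genotype lay below the unstimulated one, with log2 differences of −0.17 ± 0.21 in KO cells and −0.35 ± 0.21 in WT cells (limma, adjusted p of 1 and 0.426). The share of ZFP36L2 in the summed level of the 3 family members was 23.0% and 22.2% in KO IL-1α libraries against 28.7% unstimulated, and 29.6% and 27.5% in WT IL-1α libraries against 39.6% unstimulated. The summed level itself was 107 and 128 RPKM in KO cells with IL-1α against 104 RPKM unstimulated, and 143 and 131 RPKM in WT cells with IL-1α against 126 RPKM unstimulated. ZFP36L1 exceeded ZFP36L2 in every library, least in unstimulated WT cells (1.33-fold) and most in KO IL-1α replicate 2 (3.09-fold).

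The decay factors KHSRP and HNRNPD had IL-1α levels close to the unstimulated ones. KHSRP (KSRP; chromosome 19, 6413119 to 6424822, minus strand), which recruits decay enzymes to AU-rich mRNAs, had 71.9 and 80.8 RPKM in KO cells with IL-1α against 76.7 RPKM unstimulated, and 60.8 and 64.3 RPKM in WT cells with IL-1α against 60.1 RPKM unstimulated. The KHSRP locus contains MIR3940 and that of ZC3H12A contains MIR6732, each on the same strand, so reads over them cannot be told apart. HNRNPD (chromosome 4, 83274467 to 83295149, minus strand) had 131 and 166 RPKM in KO cells with IL-1α against 139 RPKM unstimulated, and 137 and 120 RPKM in WT cells with IL-1α against 109 RPKM unstimulated. Responses were between −0.01 and 0.24 log2 units for both genes in both genotypes, each within about 1 SE of 0 (limma, adjusted p from 0.623 to 1).

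The stabilising and silencing factors also showed small differences. ELAVL1 (chromosome 19, 8023457 to 8070529, minus strand) had 17.6 and 20.1 RPKM in KO cells with IL-1α against 18.2 RPKM unstimulated, and 12.8 and 15.0 RPKM in WT cells with IL-1α against 15.3 RPKM unstimulated. TIA1 (chromosome 2, 70443251 to 70475925, minus strand), a translational silencer found in stress granules, had 10.2 and 9.82 RPKM in KO cells with IL-1α against 11.9 RPKM unstimulated, and 8.97 and 11.1 RPKM in WT cells with IL-1α against 12.9 RPKM unstimulated. ELAVL1 overlapped its unstimulated value in KO cells and lay below it in WT cells. TIA1 lay below it in both. Both IL-1α libraries lay below the unstimulated one for 36.4% of all genes in KO cells and 54.3% in WT cells. The ELAVL1 response in WT cells was −0.13 ± 0.21 log2 units and that of TIA1 was −0.35 ± 0.22 (limma, adjusted p of 0.765 and 0.444), and the sign turned for ELAVL1 with median-of-ratios scaling and for TIA1 with the length trend removed. The neuronal relatives ELAVL3 and ELAVL4 were listed at 0 in all libraries, and ELAVL2 had 2.40 to 5.15 RPKM.

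Set against WT cells under IL-1α, 0 of the 10 genes passed in KO cells, where 0.155% of all genes passed. By limma-voom the count was also 0, and at an unadjusted p below 0.05 there was 1 gene higher (ELAVL1; 9.97% of all genes) and 1 lower (ZFP36L2; 4.93%). The KO pair lay above the WT pair for 2 genes, ELAVL1 and KHSRP (32.4% of all genes), and below it for 3, ZFP36, ZFP36L2 and N4BP1 (16.3%). ZFP36L2 had the largest difference of the 10 in this comparison, −0.55 ± 0.17 log2 units or 0.683-fold (95% interval 0.513 to 0.910), with an adjusted p of 0.250 in limma. ELAVL1 was 1.35-fold higher in KO cells (1.01 to 1.79; adjusted p = 0.327 in limma). ZC3H12A, at −0.26 ± 0.26, had overlapping values, and its difference was 0.10 without KO replicate 1 and −0.62 without KO replicate 2.

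Across all 6 libraries, 1 of the 10 genes, ZFP36L2, lay lower in every KO library than in every WT library (8.86% of all genes). It had 24.7 to 29.8 RPKM against 35.9 to 49.8 RPKM. ELAVL1 and KHSRP, 2 of the 10, lay higher in every KO library (15.7% of all genes). ELAVL1 had 17.6 to 20.1 RPKM against 12.8 to 15.3 RPKM, and KHSRP had 71.9 to 80.8 RPKM against 60.1 to 64.3 RPKM. Both counts are near the shares of all genes. The KO libraries are also those with the lower keratinocyte marker sum, and its part in these differences was not tested.

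Unstimulated cells had 1 library of each genotype, so no test was possible and intervals cover counting error only. Of the 10 genes, 0 differed by at least 2-fold, against 6.53% of all genes. ZFP36L2 had 29.8 RPKM in KO cells against 49.8 RPKM in WT cells, a ratio of 0.598 (exact 95% interval 0.570 to 0.628). ZC3H12A had 4.37 RPKM against 7.03 RPKM, a ratio of 0.621 (0.535 to 0.721), from 413 and 318 reads. Both were lower in KO cells. ZC3H12C was higher, at 1.39-fold (1.23 to 1.58), and so were HNRNPD and KHSRP at 1.28-fold each and ELAVL1 at 1.19-fold. With the trend of values on gene length removed, the log2 difference of ZC3H12C was 0.05 in place of 0.41, and that of ELAVL1 was −0.01 in place of 0.24. The signs of N4BP1 (−0.24 in place of 0.06) and TIA1 (0.21 in place of −0.10) also turned. Over all other settings tried, ZFP36 ran from −0.128 to 0.066 and ZFP36L1 from −0.064 to 0.0061, so their signs were not stable either. Intervals of ZFP36, ZFP36L1, N4BP1 and TIA1 included 1.

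**Figure D3:**
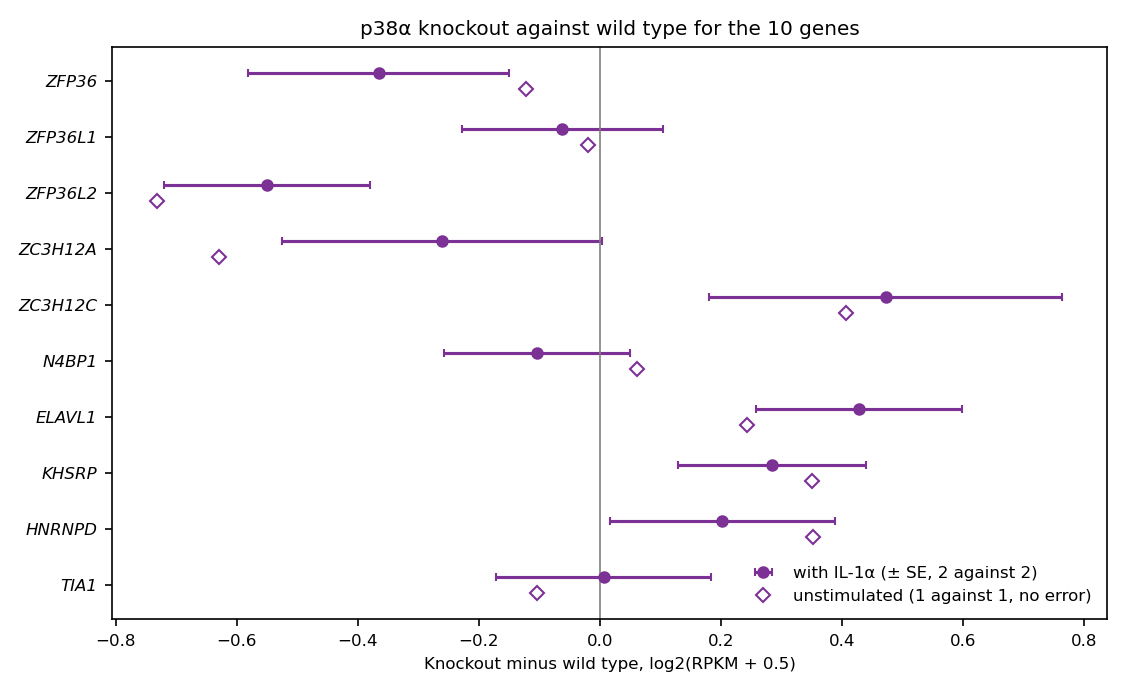
KO minus WT on the log2(RPKM + 0.5) scale (x axis) for each gene (y axis), under IL-1α as limma estimates with SE bars and in the unstimulated libraries as single differences without bars (open symbols). ZFP36L2 lies left of 0 in both, at −0.55 and −0.73, and so do ZC3H12A, ZFP36 and ZFP36L1. ZC3H12C, ELAVL1, KHSRP and HNRNPD lie right of 0 in both. The unstimulated signs of ZFP36, ZFP36L1 and ELAVL1 turned in some other settings.

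No response differed between the genotypes by the interaction test, with 0 of the 10 genes and 0 of all genes (0%) passing in limma. By limma-voom 0 passed as well, and 0 of the 10 had an unadjusted p below 0.05, against 4.39% of all genes. Estimates ran from −0.24 ± 0.37 for ZFP36 to 0.37 ± 0.46 for ZC3H12A. The 95% intervals of ZC3H12A (0.598-fold to 2.79-fold) and ZC3H12C (0.448-fold to 2.44-fold) included a response 2-fold larger in KO cells, while the upper ends of the other 8 were 1.40-fold to 1.87-fold. The intervals of ZC3H12C and ZFP36 (from 0.451-fold) included a response 2-fold smaller in KO cells. Lower ends of the remaining genes were 0.524-fold to 0.692-fold.

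The proteins act on their targets through other machinery, and genes of that machinery are given by lists taken from textbook knowledge. All lists here and below were chosen with earlier results of these data known. Their counts beside those of all genes are thus a description. The CCR4-NOT complex and other deadenylases, which shorten the poly(A) tail, had 0 of 19 genes passing in any tested comparison. In KO cells 13 were higher and 6 lower with IL-1α (median 0.07 log2 units), and in WT cells 12 and 7 (median 0.06). TNKS1BP1 and CNOT1, its most abundant members, averaged 51.1 and 44.0 RPKM. Decapping and 5′ decay genes (14 of 16 tested, 0 passing) had medians of 0.04 in KO cells and −0.21 in WT cells, with LSM7 and LSM3 averaging 69.8 and 67.6 RPKM. The RNA exosome and its SKI helpers (15 of 16 tested, 0 passing) had medians of −0.01 in KO cells and −0.18 in WT cells, with EXOSC2 and WDR61 averaging 48.9 and 38.4 RPKM. In WT cells 3 exosome genes were higher and 12 lower, 6 of them at an unadjusted p below 0.05 (13.4% of all genes were lower at that p), but with median-of-ratios scaling 7 were higher. These medians stand beside −0.02 for all genes in KO cells and −0.14 in WT cells.

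Other AU-rich or stem-loop binding proteins (27 of 32 tested) had 18 genes higher and 9 lower with IL-1α in KO cells and 21 and 6 in WT cells, with medians of 0.08 and 0.19 and 0 passing. PABPC1 and HNRNPAB averaged 293 and 184 RPKM. A list of the p38 axis (18 genes, 0 passing) had 9 higher and 9 lower in each genotype. It held the p38 kinases, the kinases MAP2K3 and MAP2K6 upstream of them, MK2 and its relatives, 14-3-3 proteins and phosphatase subunits. YWHAE and YWHAZ, 14-3-3 proteins that hold phosphorylated ZFP36, averaged 408 and 219.5 RPKM.

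A further list held mRNAs known to carry AU-rich elements. Of 28 tested (of 30; TNF and CSF3 were not tested, TNF being listed at 0 like LSM2 and SKIV2L), 25 were higher and 3 lower with IL-1α in KO cells, with 2 passing and a median of 1.02 log2 units. In WT cells 25 were higher and 3 lower, with 5 passing and a median of 1.22. CXCL8, a neutrophil chemokine, rose to 79.6 and 144 RPKM in KO cells against 6.19 RPKM unstimulated (log2 difference 4.00 ± 0.38, limma, adjusted p = 0.0469), and to 286 and 212 RPKM in WT cells against 17.7 RPKM unstimulated (3.76 ± 0.38, 0.0358). BIRC3, an inhibitor of apoptosis and NF-κB target, rose to 33.8 and 36.7 RPKM in KO cells against 6.96 RPKM unstimulated (2.26 ± 0.19, 0.0387), and to 55.8 and 59.3 RPKM in WT cells against 6.43 RPKM unstimulated (3.07 ± 0.19, 0.00773). IL1A, the gene of IL-1α itself, had 21.7 and 32.5 RPKM in KO cells with IL-1α against 4.61 RPKM unstimulated (2.41 ± 0.29, 0.0928), and rose in WT cells to 13.0 and 10.9 RPKM against 1.45 RPKM unstimulated (2.67 ± 0.29, 0.0446). CCL20, a chemokine, had 5.265 and 6.53 RPKM in KO cells with IL-1α against 0.172 RPKM unstimulated (3.24 ± 0.33, 0.0652), and rose in WT cells to 8.62 and 5.505 RPKM against 0.072 RPKM unstimulated (3.69 ± 0.33, 0.0281). The size of the CCL20 difference in WT cells ran from 2.88 to 5.996 over the settings tried, and the gene passed the filter through its IL-1α libraries alone, which favours a difference. At an unadjusted p below 0.05, 15 of the 28 were higher in KO cells, against 2.53% of all genes, and 18 in WT cells, against 4.69%. CSF2, CXCL2, CXCL3 and IER3, like CCL20, reached 1 RPKM only in IL-1α libraries. All of them are in both counts, and the filter thus favours higher counts and medians for this list. When any 1 of the 4 IL-1α libraries was left out, 0 passed in KO cells, and when either WT IL-1α library was left out, 0 passed in WT cells.

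Targets of Regnase-1 share 8 genes with that list. Of 16, 15 were higher with IL-1α in KO cells and 16 in WT cells, with 2 and 3 passing and medians of 1.77 and 1.89. LCN2, an iron-binding antimicrobial protein, rose to 161 and 150 RPKM in KO cells against 20.6 RPKM unstimulated (2.89 ± 0.25, limma, adjusted p = 0.0387) and to 471 and 342 RPKM in WT cells against 81.5 RPKM unstimulated (2.29 ± 0.25, 0.0446). CSF2 had 5.57 and 6.04 RPKM in KO cells with IL-1α against 0.844 RPKM unstimulated (2.23 ± 0.23, limma, adjusted p = 0.0652), and rose in WT cells to 5.99 and 6.10 RPKM against 0.537 RPKM unstimulated (2.66 ± 0.23, 0.0260). It too passed the filter through its IL-1α libraries alone, as did CXCL2, CXCL3 and IL36G. Such genes favour higher counts and medians for the Regnase-1 list. ZFP36 is on the AU-rich list and ZC3H12A on the Regnase-1 list, since both mRNAs are known targets. Here too, 0 passed in KO cells when any 1 of the 4 IL-1α libraries was left out, and 0 in WT cells when either WT IL-1α library was. Levels of these mRNAs do not separate transcription from decay.

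**Figure D4:**
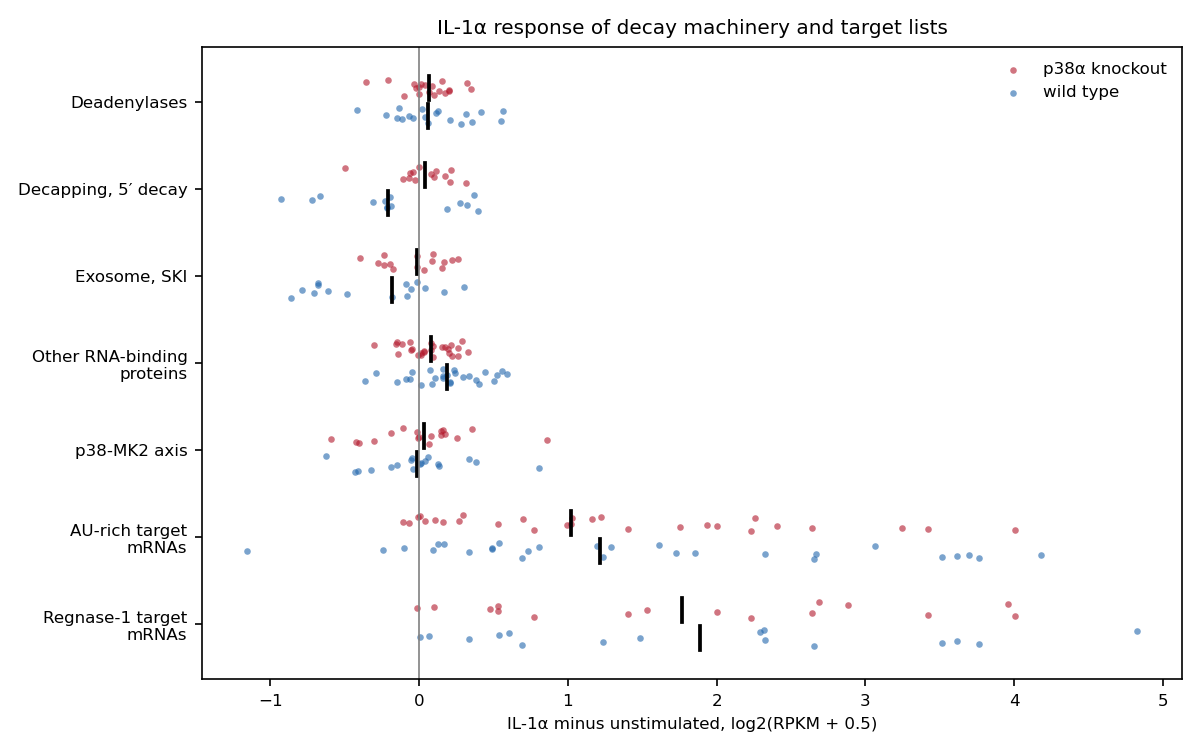
IL-1α minus unstimulated on the log2(RPKM + 0.5) scale (x axis) for the tested genes of each list (y axis) in KO and WT cells; each point is a gene. The deadenylase, decapping and exosome lists have medians of −0.01 to 0.07 in KO cells and −0.21 to 0.06 in WT cells, and the AU-rich and Regnase-1 target lists have medians of 1.02 and 1.77 in KO cells and 1.22 and 1.89 in WT cells.

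Set against WT cells under IL-1α, 9 AU-rich targets were higher and 19 lower in KO cells, with 0 passing (0.155% of all genes) and a median of −0.19 beside 0.09 for all genes. At an unadjusted p below 0.05, 4 were higher (9.97% of all genes) and 10 lower (4.93%). Of the Regnase-1 targets 5 were higher and 11 lower (0 passing, median −0.31). The unstimulated libraries, 1 per genotype, had a like split. There 10 AU-rich targets were higher and 18 lower in KO cells (median −0.10), and 6 and 10 Regnase-1 targets (median −0.24), beside −0.01 for all genes. In the interaction test 0 genes of either list passed. PTGS2, the prostaglandin synthase COX-2, was picked out after its values were seen. It had 5.06 and 4.50 RPKM in KO cells against 14.4 and 12.4 RPKM in WT cells under IL-1α, and 3.15 RPKM against 10.5 RPKM unstimulated. The difference under IL-1α was −1.40 ± 0.18 log2 units (limma, adjusted p = 0.0730), and passed in 4 of 14 other settings.

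Genes whose pattern was most like that of a regulator were sought among 8249 genes, by the root mean square of the difference in centred log2(RPKM + 0.5) over the 6 libraries. It was done only for ZC3H12A and ZC3H12C, the members whose values spanned at least 1 log2 unit. BIRC3 (0.35), NFKBIA (0.35), the gene of an NF-κB inhibitor, and TNFAIP2 (0.39) were closest to ZC3H12A. NFKBIA had 95.5 and 139.7 RPKM in KO cells with IL-1α against 28.03 RPKM unstimulated, and 119.7 and 95.1 RPKM in WT cells with IL-1α against 29.9 RPKM unstimulated. ST5 (0.18), FAM129A (0.18) and LAMA3 (0.18), the gene of a laminin chain, were closest to ZC3H12C. LAMA3 had 245 and 358 RPKM in KO cells with IL-1α against 157 RPKM unstimulated. In WT cells it had 232 and 319 RPKM with IL-1α against 114 RPKM unstimulated. Its second IL-1α library was the higher in both genotypes, as for ZC3H12C. The choice by distance over these same libraries favours such a likeness.

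**Figure D5:**
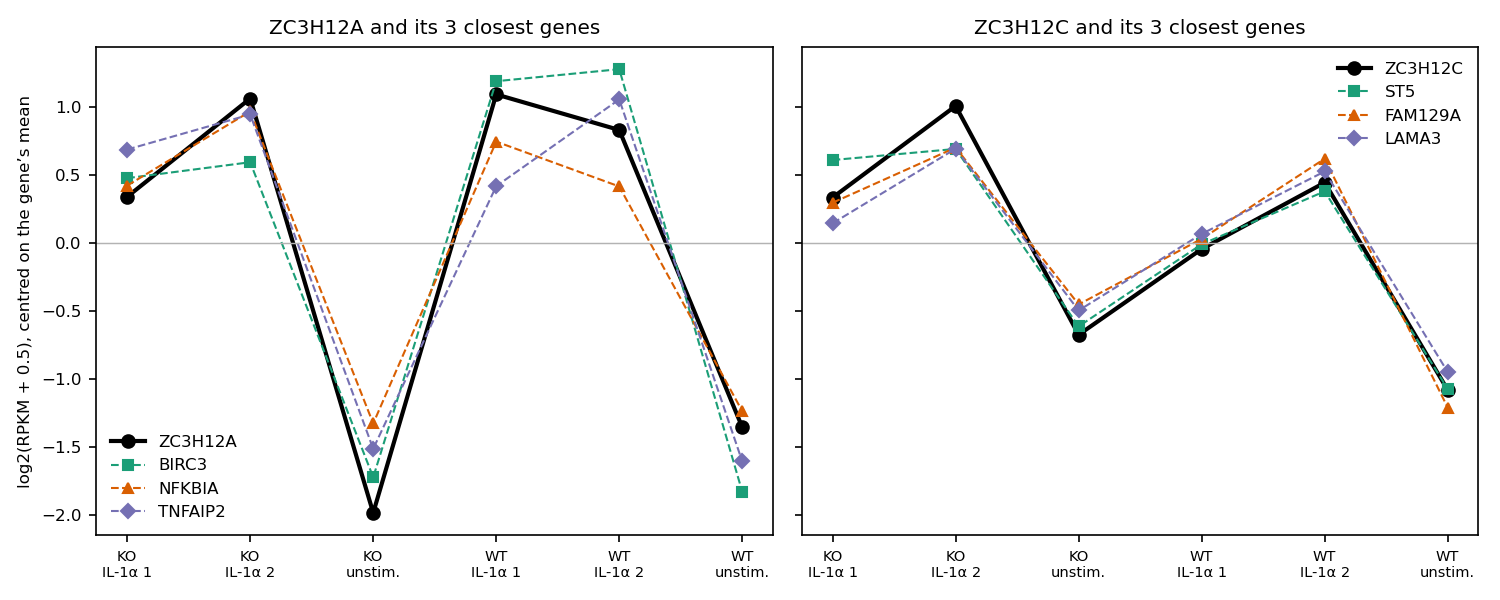
log2(RPKM + 0.5) centred on each gene's mean (y axis) in the 6 libraries (x axis), for ZC3H12A and ZC3H12C and the 3 genes closest to each. The lines of each panel lie close together because the genes were chosen for it. Their root mean square distances are 0.35 to 0.39 for ZC3H12A and 0.18 for ZC3H12C.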

How the data were processed

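Per the labels' protocols, RNA was isolated with Trizol and RNeasy columns and made into stranded mRNA libraries. Per the submitters' processing notes, reads passed through bcl2fastq (2.20.0.422), STAR and HOMER on hg19. The authors deposited RPKM per gene, made with HOMER's analyzeRepeats over exons with 1 line per symbol, per the file headers, which also write FPKM. Whether reads were counted by strand is not given in the sources used here. Values were used as deposited. Depth was taken as the read number that turned values of 0.02 to 1 RPKM into whole reads (tolerance 0.1 read), and the resulting reads served for voom and counting intervals only.

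limma (3.58.1, R 4.3.3) was fitted to log2(RPKM + 0.5) of 12925 genes with 1 coefficient per group, a variance trend and Benjamini-Hochberg adjustment; fold changes on this scale understate those of low genes. The fit had 2 residual and 4.2 prior degrees of freedom. Alternatives were other pseudocounts, filters, scalings, voom, a length correction, a replicate block and leaving out each IL-1α library. Up to 4 passing genes per list were named by size of change, or the 2 most abundant where none passed. PTGS2 was added after its values were seen. The members and lists were chosen with earlier results of these data known.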

Additional observations from a re-analysis of the deposited data

How the results depend on the processing

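Tested results were recomputed under 14 alternatives, except CCL20 and CSF2, which have 13 since their means are under 5 RPKM. Members passing in WT cells numbered 1 in place of 0 with a mean of at least 5 RPKM, with the length trend removed and with the replicate block, in each case ZC3H12A (limma, adjusted p of 0.00691, 0.0355 and 0.0423); in KO cells the number was 1 with a mean of at least 5 RPKM. Over all alternatives the adjusted p of ZC3H12A ran from 0.00547 to 1 in KO cells and from 0.00691 to 0.734 in WT cells, while its log2 response stayed at 2.33 to 3.05 and 2.19 to 2.46.

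Genes passing with IL-1α in KO cells numbered 9, but 5 with pseudocount 1, 65 without a filter, 49 with a mean of at least 5 RPKM, 2 with voom, 4 without the variance trend, 21 with the length trend removed, 18 with the replicate block and 0 when any 1 IL-1α library was left out. In WT cells they numbered 28, but 49 without a filter, 156 with a mean of at least 5 RPKM, 48 with median-of-ratios scaling, 11 with voom, 96 with the length trend removed, 81 with the block and 0 to 46 when 1 library was left out, the 0 coming without either WT library. For KO against WT under IL-1α they numbered 20, but 7 with pseudocount 0.1, 0 without a filter, 83 with a mean of at least 5 RPKM, 13 with quantile normalization, 55 with voom, 0 without the trend, 40 with the length trend removed, 58 with the block and 0 when 1 library was left out. The interaction had 0, but 87 without a filter. The number of AU-rich targets passing ran from 0 to 7 in KO cells and 0 to 11 in WT cells. The cause was not tested. Median-of-ratios scaling moved the median WT response of all genes to −0.01 from −0.14.

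Signs of tested differences, in log2 units, turned as follows. With IL-1α in KO cells KHSRP was 0.0061 with median-of-ratios scaling, 0.011 with quantile normalization, 0.00097 with the length trend removed and −0.093 to 0.074 with 1 library left out; ELAVL1 was −0.044 to 0.15 and HNRNPD −0.082 to 0.25 with 1 library left out. In WT cells ELAVL1 was 0.0074 with median-of-ratios scaling and TIA1 0.075 with the length trend removed. For KO against WT under IL-1α TIA1 was −0.094, −0.080, −0.0012 and −0.047 with median-of-ratios scaling, quantile normalization, voom and the length trend removed; with 1 library left out TIA1 was −0.14 to 0.15, ZFP36L1 −0.20 to 0.075 and ZC3H12A −0.62 to 0.10. For the interaction ZC3H12C was −0.053 and −0.0082, and TIA1 −0.015 and −0.00057, with median-of-ratios scaling and quantile normalization; TIA1 was −0.26 with the length trend removed and ZFP36L2 −0.0058 with quantile normalization. With 1 library left out the interaction was −0.27 to 0.40 for ZC3H12C, −0.036 to 0.26 for TIA1, −0.18 to 0.095 for ZFP36L1, −0.15 to 0.018 for KHSRP and −0.32 to 0.017 for HNRNPD.

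Whether the replicate numbers pair the samples is not known. The deviations of same-numbered IL-1α libraries correlated at 0.0086 over 12925 genes. This shows no shared shift across genes, but cannot tell whether the samples were handled in pairs. The blocked counts above are given for completeness. Leaving out a library left 1 in its group, which was assumed to vary like the other pair. In the shallowest library, of 16294033 reads, TIA1 rested on 176 reads.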
